A study of Mus musculus with 24 samples.

Results

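The clock output genes described here were 10 mouse genes, Dbp, Tef, Hlf, Nfil3, Usp2, Ccrn4l, Wee1, Upp2, Coq10b and Avpr1a, out of 24411 genes counted by RNA-seq in livers that lacked the atypical E2F repressors E2f7 and E2f8 and in control livers. They were taken by symbol as transcription factors of the PAR-bZIP family and rhythmic output genes, and because several of them differed between HKO and control livers at 0 h, so the genes were chosen by count differences of that contrast, which is given below as a description, without a test. All 10 were found in the count files, and all 10 passed the filter on low counts in every comparison.

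All mice were males of 2.5 months, fasted for about 16 h, with loxP-flanked E2f7 and E2f8 alleles and the R26R mTmG reporter. In the HKO cohort, floxed mice were given AAV8-TBG-Cre (HKO, 3 mice) or AAV8-TBG-Null (control, labelled NULL, 3 mice) at 2 months of age; the TBG promoter restricts expression to hepatocytes, so that deletion occurred in adult hepatocytes. In the LKO cohort, on a mixed, predominantly FVB background, the knockout mice carried 1 copy of Alb-Cre, which acts in the liver lineage from development on (LKO, 4 mice), and the controls were littermates without Cre (labelled WT but carrying the floxed alleles, 4 mice). These 14 livers were collected at 0 h, after fasting and without acetaminophen (APAP), an analgesic that injures the liver in overdose. For 12, 24, 48, 72 and 96 h after 300 mg/kg APAP, 1 library of each LKO cohort genotype was made from a pool of 3 mice, so a difference between genotypes at a single time had no replicate check. The hour of day of collection was not given in the sources used here. Hours since injection and hour of day cannot be told apart, and neither can fewer hepatocytes and less RNA per hepatocyte. Of the times after APAP, only 12 h is not a whole number of days after injection, so it was also compared with the mean of 24 to 96 h.

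Between 12665686 and 19499897 reads were assigned to genes per library, and levels are given as CPM, the read count of a gene relative to its library's size, after TMM scaling over all 24 libraries, where 3 counts correspond to 0.154 to 0.237 CPM. The summed CPM of 7 hepatocyte markers lay between 51804 and 128837 in all libraries, with no marker at 0. Alb held the largest part of this sum, with group means of 46936 to 60397 CPM at 0 h, and changes of single markers are given below. The E2f8 count covers the whole gene and did not check its deletion; at 0 h it was 30.7 to 83.9 CPM in HKO against 15.2 to 26.4 CPM in NULL mice, and 17.6 to 34.2 CPM in LKO against 11.6 to 18.7 CPM in control mice. Reads outside genes made up 12.6 to 14.7% in the HKO cohort and 7.29 to 13.6% in the LKO cohort.

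The liver clock is a feedback loop in which ARNTL and CLOCK activate genes through E-boxes, and the PER, CRY and REV-ERB proteins that they induce turn this activity down. Its outputs include DBP, TEF and HLF, PAR-bZIP activators that bind D-boxes, and NFIL3, a bZIP repressor that competes for the same sites. In liver these factors transmit daily time to genes of metabolism and detoxification. Usp2 encodes a ubiquitin-specific protease, and Ccrn4l (Noct in the annotation) encodes nocturnin, a phosphatase of nicotinamide adenine dinucleotide phosphate. Wee1 encodes the kinase that holds back entry into mitosis, and Upp2 a uridine phosphorylase. Coq10b encodes a protein needed for coenzyme Q function in mitochondria, and Avpr1a the vasopressin receptor of hepatocytes.

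RefSeq promoter windows (GRCm38.p6, from 250 bases before to 50 after a transcript start) were found for 9 of the 10 genes, in 11 windows; Wee1 had none. The E-box letters CACGTG, which read the same on both strands, were in 3 of these 11 windows, belonging to Tef and Coq10b, against 7.15% of all 32851 windows. The D-box letters TTATGTAA or TTACGTAA, searched on both strands and not overlapping the E-box, were in 1 window, that of Coq10b, against 1.06% of all windows. The upstream stretches that hold them are printed below from 5′ to 3′ on the plus strand, which is the strand of both genes, with the motif in capitals; TTACATAA is TTATGTAA read from the other strand. They are shown because these were the windows of the 10 genes that held a match. A match to the letters is a description and not a binding site.
Tef, E-box 127 bases before the start, chr15:81802526-81802571: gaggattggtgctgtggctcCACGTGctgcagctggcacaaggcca
Tef, E-box 138 bases before a second start, chr15:81811256-81811301: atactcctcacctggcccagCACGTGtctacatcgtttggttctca
Coq10b, E-box 78 bases before the start, chr1:55052672-55052717: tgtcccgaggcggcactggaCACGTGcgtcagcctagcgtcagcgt
Coq10b, D-box 162 bases before the start, chr1:55052588-55052635: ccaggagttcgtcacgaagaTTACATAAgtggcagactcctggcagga

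Per length of exon, in control mice of the LKO cohort at 0 h, Upp2 had the highest level of the 10 genes at 69.7 ± 19.7 RPKM (SD, n = 4). Dbp followed at 30.0 ± 14.5 RPKM and Tef at 27.1 ± 3.84 RPKM. Nfil3, Coq10b, Usp2, Avpr1a, Hlf and Ccrn4l came next, from 18.1 ± 8.54 RPKM for Nfil3 to 6.66 ± 2.63 RPKM for Ccrn4l, and Wee1 was lowest at 2.78 ± 0.684 RPKM. From Dbp down to Ccrn4l, each gene differed from the next in the order by less than the sum of both SDs. The exons of Dbp (chr7:45705088-45710203, plus strand) share 737 bases (chr7:45709467-45710203) with Sphk2 on the opposite strand, and the strand-independent count leaves out reads there. The sum of the 2 stranded Dbp counts was 1.62 to 2.80 times the count used, so the level of Dbp is understated; this ratio was 1.00 to 1.01 for the other 9 genes.

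In HKO livers at 0 h, the contrast that chose the genes, 8 of the 10 genes were lower and 2 higher than in every NULL mouse. Dbp was 25.1, 6.21 and 10.9 CPM in the 3 HKO mice and 96.7, 105 and 76.9 CPM in the 3 NULL mice. Usp2 was 21.2, 4.67 and 4.04 CPM in HKO mice and 120, 135 and 95.3 CPM in NULL mice. HKO mouse 1 held the highest level of both genes within its group, and the groups did not overlap. The log2 fold change was -3.53 (SE 0.53) for Usp2, -2.70 (SE 0.40) for Dbp, -2.51 (SE 0.15) for Ccrn4l, -2.31 (SE 0.21) for Wee1, -1.98 (SE 0.18) for Upp2, -1.59 (SE 0.11) for Coq10b, -1.18 (SE 0.18) for Tef and -0.61 (SE 0.14) for Hlf. Avpr1a (31.2, 41.0 and 39.5 CPM against 10.2, 12.3 and 9.09 CPM) and the repressor Nfil3 (33.6, 40.2 and 22.0 CPM against 15.3, 15.6 and 19.3 CPM) were the genes with higher levels, at log2 1.83 (SE 0.16) and 0.94 (SE 0.21).

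A gene is called here at an adjusted p under 0.05 with a fold of at least 1.5. Because the genes were chosen for this contrast, its counts describe the choice and do not test it: 8 of the 10 genes, 7 lower and 1 higher (all but Hlf and Nfil3), lay past these limits, as did 0.96% of all genes, and 18% of all genes had groups that did not overlap, 7.93% with HKO higher and 10.1% with HKO lower. Nothing is read from these counts. DESeq2 put 10 of the 10 past the limits, 2 higher and 8 lower, with 327 of all genes. The number by edgeR was 5 without NULL mouse 1 or without NULL mouse 2. Of the 18 core clock genes, 5 lay past the limits in this contrast, 1 higher and 4 lower (by DESeq2 8, 2 higher and 6 lower), and 13 did not, Nr1d1 (log2 -0.08, SE 0.17) and Cry1 (-0.03, SE 0.22) among them. Arntl was 12.0, 18.6 and 16.6 CPM in HKO and 3.18, 2.49 and 4.38 CPM in NULL mice, while Per2 was 25.4, 13.3 and 18.4 CPM against 58.0, 61.4 and 62.5 CPM.

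**Figure D1:**
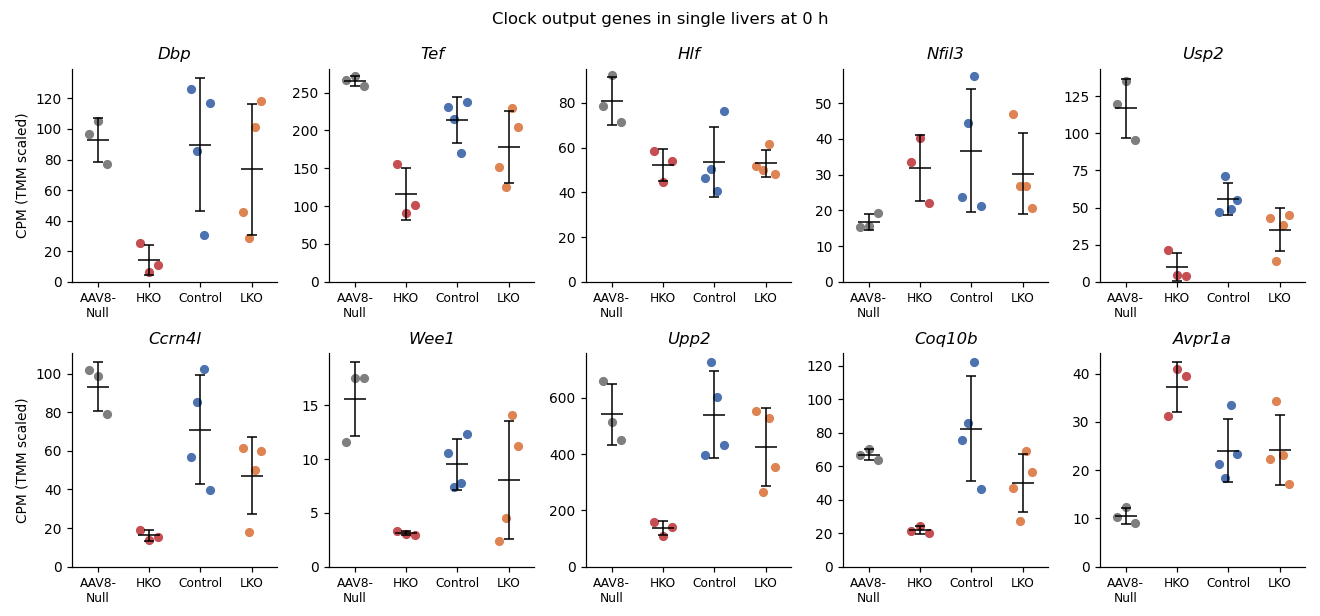
Levels at 0 h of the 10 clock output genes in single livers (y axis, CPM after TMM scaling, starting at 0), for NULL (AAV8-Null), HKO, control and LKO mice; points are mice, and bars the mean ± SD of 3 mice in each HKO cohort group and 4 in each LKO cohort group. HKO and NULL points do not overlap for any gene, while LKO and control points overlap for all but Usp2.

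The 8 mice of the LKO cohort give the range of these genes in other livers at 0 h. NULL mice lay above all 8 for Usp2 and Tef, where 9.74% of 11769 genes did, and below all 8 for Nfil3 and Avpr1a, where 8.56% did. HKO mice lay above all 8 for 0 of the 10 genes (8.09% of all) and below all 8 for Dbp, Upp2 and Coq10b (8.31% of all), and within or across their range for the other 7 genes, Usp2, Wee1, Nfil3 and Avpr1a among them. The NULL and HKO values are those that chose the genes, so these counts describe the choice, and nothing is read from them. Avpr1a, for example, was 9.09 to 12.3 CPM in NULL mice, 31.2 to 41.0 CPM in HKO mice and 17.2 to 34.3 CPM in the LKO cohort. The cohorts differed in virus and in the source of Cre. Their knockouts also differed in the age at deletion and, per the paper, in hepatocyte ploidy, the number of chromosome sets. These differences cannot be told apart here, and the background of the HKO cohort was not given in the sources used here.

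LKO livers at 0 h carry a deletion of the same genes, made from development on, in mice that the choice of the genes did not use. The paper reports mostly diploid hepatocytes in LKO livers and mostly polyploid ones in control and HKO livers. This contrast therefore does not repeat the HKO contrast. None of the 10 genes was called, where 0% of all 12426 genes tested was called. Usp2 was 43.1, 13.9, 38.5 and 45.2 CPM in LKO mice and 47.0, 71.2, 49.3 and 55.0 CPM in control mice. LKO mice were all below the controls, with mouse 2 lowest, and the log2 fold change was -0.66 (SE 0.31, edgeR adjusted p = 0.999). Usp2 alone of the 10 had groups that did not overlap, where 1.85% of all genes tested had such groups, 0.604% with LKO lower and 1.25% with LKO higher. Coq10b was 46.8, 27.6, 69.0 and 56.8 CPM in LKO mice and 75.7, 85.8, 122 and 46.3 CPM in control mice, which overlapped, with a log2 fold change of -0.71 (SE 0.31, edgeR adjusted p = 0.999).

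Dbp was 45.8, 28.6, 101 and 119 CPM in LKO mice and 126, 85.3, 30.4 and 117 CPM in control mice. Each group held both high and low mice, and the log2 fold change was -0.29 (SE 0.48). Tef, at -0.26 (SE 0.20), Nfil3, at -0.27 (SE 0.33), Wee1, at -0.24 (SE 0.45), Upp2, at -0.34 (SE 0.26), and Ccrn4l, at -0.58 (SE 0.37), had log2 fold changes below 0, and Hlf and Avpr1a were at -0.02 (SE 0.19) and 0.02 (SE 0.23). The median over the 10 genes was -0.28, and that over all genes -0.00. By the edgeR test 1 of the 10 genes, Coq10b, had an unadjusted p under 0.05, as had 352 (2.83%) of all genes; DESeq2 called none of the 10 and 3 of all genes, and gave 2 an unadjusted p under 0.05. Of the 18 core clock genes and 12 other outputs, edgeR and DESeq2 likewise called 0, with 4 and 2 at an unadjusted p under 0.05 by edgeR and 3 and 2 by DESeq2.

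**Figure D2:**
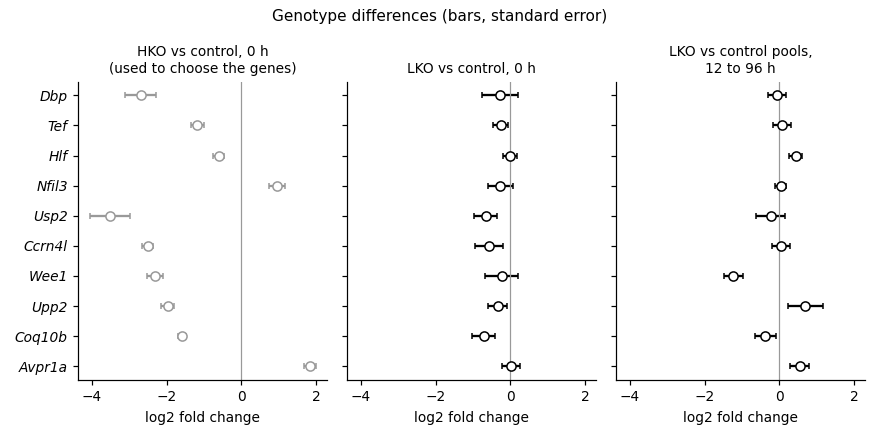
Log2 fold changes (x axis) of the 10 genes with standard errors (bars) for HKO against NULL at 0 h (grey, used to choose the genes), LKO against control at 0 h, and LKO against control over the pools from 12 to 96 h. Open black points were not called; Wee1 in the pools, at -1.23, is farthest from 0 among them.

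Mice of one group differed more in several of these genes than in most genes. The SD of log2 CPM between mice within the 4 groups at 0 h was 0.85 for Dbp, larger than for 98.2% of the 11769 genes with a mean of at least 1 CPM. Usp2 (0.79), Wee1 (0.63), Ccrn4l (0.54) and Nfil3 (0.49) followed, and Tef (0.30), Avpr1a (0.31) and Hlf (0.25) had the smallest spread of the 10. The median SD was 0.45 over the 10 genes, 0.34 over the core clock genes, 0.49 over the 12 other output genes and 0.25 over all genes. Control mouse 3, with 30.4 CPM of Dbp, had 8.74 CPM of the core activator Arntl, against 2.36 to 3.57 CPM in the other 3 control mice. Its library had the fewest reads on genes of all 24 (12665686) and the largest shares of unmapped reads (20.6%, where all libraries ranged from 2.63 to 20.6%) and of multimapping reads (8.06%); their part in its levels was not tested. Without this library the SD was 0.72 for Dbp, 0.65 for Arntl and 0.42 as the median of the 10 genes, against 0.23 over all genes. LKO mice 1 and 2, with 45.8 and 28.6 CPM of Dbp, had 12.6 and 8.38 CPM of Arntl, against 3.64 and 2.00 CPM in LKO mice 3 and 4.

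After the group mean was subtracted, the genes whose log2 CPM was most like that of Dbp over the 14 livers were Tef (Pearson r 0.94), Acot7 (0.91), Eef2k (0.90), Eftud1 (0.89) and Traf4 (0.87), ranked among 11769 genes. Of the other members, Usp2 had r 0.66, Wee1 0.57, Hlf 0.56, Ccrn4l 0.18, Upp2 0.15 and Coq10b 0.01 with Dbp, and Nfil3 and Avpr1a had -0.60 and -0.75. Arntl had -0.82. Without control mouse 3, over 13 livers, r with Dbp was 0.96 for Tef and -0.73 for Arntl. It rose to 0.44 for Coq10b, 0.54 for Ccrn4l, 0.32 for Upp2, 0.75 for Usp2 and 0.61 for Wee1. It weakened to 0.39 for Hlf, -0.42 for Nfil3 and -0.63 for Avpr1a. Most like Nfil3 were Naa25 (0.95), Nol8 (0.94), Hapln4 (0.94), Nfkbib (0.94) and Hnrnpll (0.93). These values describe 14 livers whose genes share library and depth, and they were not tested.

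**Figure D3:**
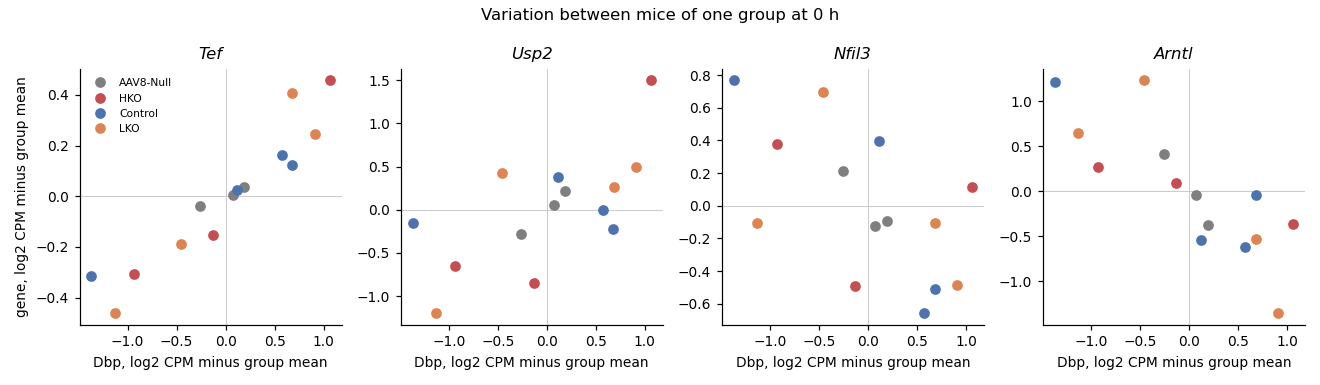
Deviation from the group mean at 0 h (log2 CPM) of Tef, Usp2, Nfil3 and Arntl (y axes) against that of Dbp (x axis) in 14 single livers, coloured by group. Mice high in Dbp were high in Tef (r 0.94) and low in Arntl (r -0.82).

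The time course after APAP was compared with the 8 LKO cohort mice at 0 h, with both genotypes in one fit; all 5 time points share these 8 mice, and only the pools had received APAP. Dbp stayed low up to 48 h and was back within the range of the 0 h mice at 72 h. In control pools it was 9.94, 10.5, 8.53, 44.6 and 92.3 CPM at 12, 24, 48, 72 and 96 h, and in LKO pools 11.4, 8.19, 10.2, 73.9 and 44.9 CPM, where the 0 h mice ranged from 28.6 to 126 CPM with a median of 93.2 CPM. The 6 pools from 12 to 48 h lay below all 8 mice, and the 4 later pools within them. The log2 fold change was -2.91 at 12 h (SE 0.59, edgeR adjusted p = 0.00145), -3.13 at 24 h (SE 0.60, adjusted p = 0.0013) and -3.11 at 48 h (SE 0.60, adjusted p = 0.00208). It was not called at 72 h (-0.43, SE 0.49) or 96 h (-0.27, SE 0.48). Without the control pool at 48 h the adjusted p at 48 h was 0.0698, and its log2 fold change at 48 h lay between -3.36 and -2.70 over all alternative fits.

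**Figure D4:**
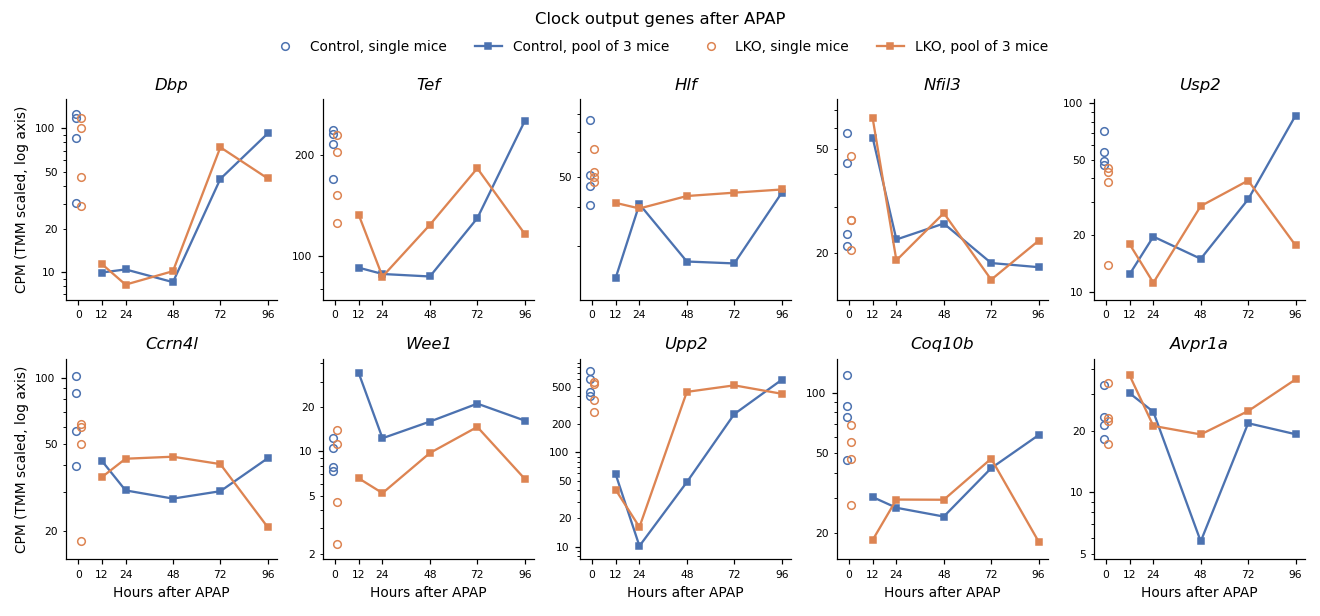
Levels of the 10 genes (y axis, CPM after TMM scaling, log axis) against hours after APAP (x axis) in the LKO cohort; open circles are single mice at 0 h, drawn beside 0 to separate the genotypes, and squares joined by lines are pools of 3 mice, 1 per genotype and time. Dbp is at 8.19 to 11.4 CPM in the pools from 12 to 48 h, and Upp2 at 10.2 and 16.1 CPM at 24 h.

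The PAR-bZIP relatives of Dbp changed less. Tef was 92.6, 88.7, 87.2, 130 and 252 CPM in control pools and 133, 87.2, 124, 183 and 117 CPM in LKO pools, where the 0 h mice ranged from 126 to 237 CPM with a median of 210 CPM. Both pools lay below all 8 mice at 24 and 48 h. The log2 fold change of Tef at 12 h was -0.78 (SE 0.29, adjusted p = 0.0491), at 24 h -1.15 (SE 0.30, adjusted p = 0.00938) and at 48 h -0.88 (SE 0.30, adjusted p = 0.0491). Hlf fell at 12 h (log2 -0.74, SE 0.25, adjusted p = 0.0293), with the control pool at 23.7 CPM below all 8 mice (40.6 to 76.3 CPM) and the LKO pool at 41.2 CPM within them. Hlf was not called at later times, where its log2 fold change lay between -0.63 and -0.25.

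The repressor Nfil3 moved the other way at 12 h. Its control pools were at 55.1, 22.6, 26.0, 18.4 and 17.7 CPM and its LKO pools at 65.3, 18.8, 28.5, 15.9 and 22.3 CPM, where the 0 h mice ranged from 20.6 to 57.5 CPM with a median of 26.9 CPM. In both genotypes the 12 h pool was the highest of the 5, within the range of the 0 h mice in control and above it in LKO, and both 72 h pools lay below all 8 mice. Nfil3 rose by log2 0.87 (SE 0.31, adjusted p = 0.0359) at 12 h, and its log2 fold changes from 24 to 96 h, between -0.96 and -0.29, were not called. Against the mean of the later pools, Nfil3 at 12 h was higher by log2 1.53 (SE 0.30, adjusted p = 0.000841).

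Upp2 had the widest range of the 10 genes. It was 58.3, 10.2, 48.4, 255 and 590 CPM in control pools and 40.1, 16.1, 440, 515 and 420 CPM in LKO pools, where the 0 h mice ranged from 266 to 727 CPM with a median of 481 CPM. All 4 pools at 12 and 24 h lay below all 8 mice, as did the control pools at 48 and 72 h. Upp2 fell by 3.28 (SE 0.65, adjusted p = 0.00114) at 12 h and by 5.23 (SE 0.73, adjusted p = 0.000151) at 24 h on the log2 scale. At 48 h the change was -1.07 (SE 0.57, adjusted p = 0.2), and without the LKO pool at 48 h it was -3.37 (adjusted p = 0.00128). Against the mean of the later pools, Upp2 at 12 h was lower by log2 fold change -1.63 (SE 0.58, adjusted p = 0.0353).

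Usp2 was 12.5, 19.7, 15.0, 31.0 and 86.1 CPM in control pools and 18.0, 11.2, 28.6, 39.0 and 17.7 CPM in LKO pools, where the 0 h mice ranged from 13.9 to 71.2 CPM with a median of 46.1 CPM. At 12 and 24 h 1 pool each lay below all 8 mice, and the control pool at 96 h lay above them. Usp2 fell by 1.48 (SE 0.51, adjusted p = 0.0321) at 12 h and by 1.56 (SE 0.51, adjusted p = 0.0298) at 24 h on the log2 scale, and was not called later. Coq10b had pools at 18.1 to 61.5 CPM, against 27.6 to 122 CPM at 0 h, and fell at 12 h (log2 -1.44, SE 0.42, adjusted p = 0.0137), 24 h (-1.17, SE 0.41, adjusted p = 0.0414) and 48 h (-1.22, SE 0.41, adjusted p = 0.0483). Avpr1a was called at 48 h alone, at log2 -1.03 (SE 0.35, adjusted p = 0.0495), where the control pool held 5.75 CPM and the LKO pool 19.1 CPM, against 17.2 to 34.3 CPM at 0 h. Ccrn4l (log2 -0.91 to -0.59) and Wee1 (log2 -0.13 to 1.00) were not called at any time with all libraries in the fit.

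**Figure D5:**
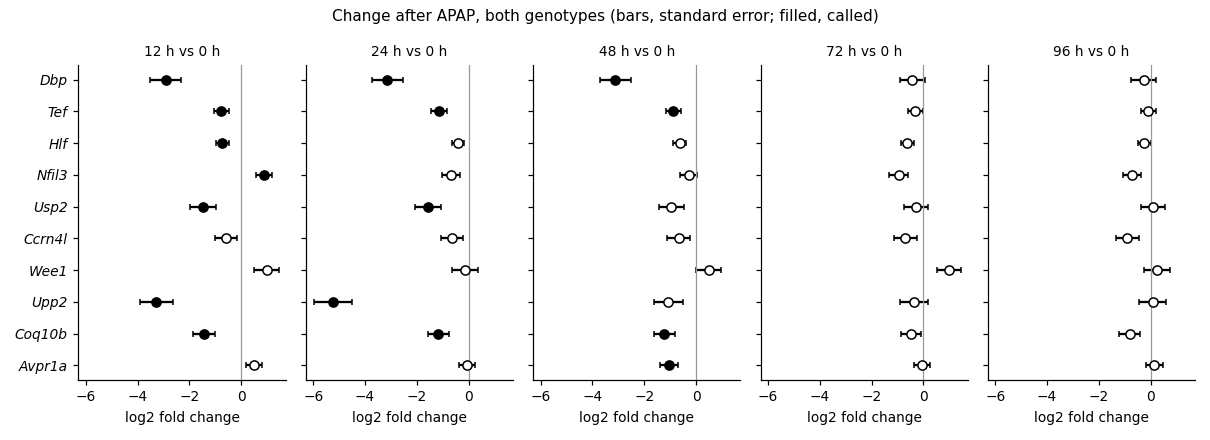
Log2 fold changes (x axis) with standard errors (bars) of the 10 genes at 5 times after APAP against 0 h, both genotypes in one fit; filled points were called and open points were not. The 12, 24 and 48 h panels hold 7, 5 and 4 filled points, and the 72 and 96 h panels hold 0.

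In numbers, 7 of the 10 genes were called at 12 h, 6 lower and 1 higher, where 31% of all genes were called, 14.3% lower and 16.7% higher. At 24 h 5 were called, all lower, where 25.6% of all genes were called, 11.7% lower and 13.9% higher, and at 48 h 4, all lower, where 16.4% were called, 6.52% lower and 9.89% higher. At 72 h none was called, where 16.8% of all genes were, 5.77% lower and 11% higher, with 3 of the 10 at an unadjusted p under 0.05 by edgeR, as were 32.3% of all genes, and 1, Nfil3, called by DESeq2, which called 2565 of all genes. At 96 h none was called by edgeR or DESeq2, where 0.462% of all genes were by edgeR, 0.13% lower and 0.332% higher, with 1 and 3 of the 10 at an unadjusted p under 0.05. Of all genes, 15.4% had such a p by edgeR, and DESeq2 called 331. The median log2 fold change of the 10 genes was -0.76, -0.92, -0.91, -0.40 and -0.17 at the 5 times, and that of all genes lay between -0.03 and -0.00. Both pools lay below all 8 mice at 12 h for 2 genes, at 24 h for 3 and at 48 h for 2, where 17.3%, 17.5% and 11.3% of all genes did; above all 8 mice there were 0 of the 10 at these times, where 18%, 19.4% and 13% of all genes were. At 72 h Nfil3 lay below (12.6% of all genes) and Wee1 above (15% of all genes), and at 96 h 0 of the 10 lay below (7.43%) or above (6.96%). In the contrast of 12 h with the mean of 24 to 96 h 2 of the 10 genes were called, where 33.7% of all genes were.

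Leaving out single libraries changed these counts. The 7 genes called at 12 h became 2, Dbp and Upp2, without the control pool at 12 h. Tef at 12 h was also not called without control mouse 1, 2 or 4, LKO mouse 3 or 4, or either 24 h pool (adjusted p up to 0.419 over all left-out libraries), Nfil3 not without control mouse 1, LKO mouse 2, 3 or 4, or the LKO pool at 12 h (up to 0.273), and Coq10b not without the LKO pool at 12 h (up to 0.103). Wee1 at 12 h, at log2 0.98 with all libraries, was 1.65 without the LKO pool at 12 h (adjusted p = 0.035) and -0.13 without the control pool at 12 h, and it was also called without LKO mouse 3. The 5 genes called at 24 h became 2, Dbp and Upp2, without either 24 h pool, and Coq10b at 24 h was also not called without control mouse 1 or 2 or LKO mouse 3 or 4 (up to 0.361). The 4 genes called at 48 h became 0 without the control pool at 48 h. They became 1 without control mouse 1 or 2, LKO mouse 3, or any pool at 24 or 72 h, and 2 without control mouse 3 or 4, LKO mouse 4, or either pool at 12 h. Avpr1a at 48 h lost its call in 15 of the 18 fits that left out 1 library, Coq10b in 13 and Tef in 11. The log2 fold change of Avpr1a at 48 h was -0.41 without the control pool at 48 h (adjusted p = 0.585) and -1.99 without the LKO pool at 48 h (adjusted p = 0.00523). The count at 72 h became 1 without control mouse 4 or LKO mouse 4 (Nfil3) or without LKO mouse 3 (Wee1). Upp2 at 12 h against the later pools was not called without either 12 h pool or the control pool at 96 h (up to 0.261) or in a fit on the 10 pools alone (adjusted p = 0.0786), and Avpr1a was called there without control mouse 3 or the LKO pool at 48 h.

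Cell type markers moved over the same times. Among the 7 hepatocyte markers, Ttr fell at 12 h (log2 -0.98, SE 0.31), Cps1 at 24 h (-1.36, SE 0.28) and Hnf4a at 24 h (-0.67, SE 0.23), 48 h (-0.88, SE 0.24) and 72 h (-0.83, SE 0.24), while Apoa1 rose at 24 h (0.77, SE 0.28), and none of these 7 was called at 96 h. The summed level of 4 endothelial markers was 119 to 150 CPM in the pools from 24 to 72 h, below all 8 mice at 0 h (169 to 221 CPM), with Stab2 and Kdr called lower at each of these times. The summed level of 5 stellate cell markers was 338 to 689 CPM at 72 h against 34.7 to 66.4 CPM in the 0 h mice of the LKO cohort. That of the 4 neutrophil markers counted, of 5 on the list, was 7.47 to 30.5 CPM from 12 to 72 h against 2.37 to 11.1 CPM, and that of 4 cholangiocyte markers was 22.3 to 134 CPM at 12 h against 8.83 to 12.8 CPM. Of these 4 cholangiocyte markers, only Sox9 was called at 12 h, as higher, and the median log2 fold change of the 4 was 0.08. Of the 5 macrophage markers, 2 were called higher and 1 lower at 12 h, 2 higher and 3 lower at 24 h, and 2 higher and 0 lower at 48 h. No marker was at 0 in every library of a group. Their part in the changes of the 10 genes was not tested.

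Of the 18 core clock genes, the numbers called over the first 4 time points were 5, 6, 6 and 3, where the shares of all genes called were 31%, 25.6%, 16.4% and 16.8%. At 12 h, 4 rose and 1 fell: Arntl (log2 1.82, SE 0.51), Csnk1e (1.69, SE 0.28), Cry1 (1.66, SE 0.25) and Per1 (1.43, SE 0.22) rose, and Nr1d1, which encodes the repressor REV-ERBα, fell (-0.81, SE 0.28). The genotypes differed in Csnk1e: its highest control pool of all times held 45.2 CPM and its highest LKO pool 12.8 CPM. At 0 h it was 7.55 to 8.84 CPM in control mice and 7.29 to 9.60 CPM in LKO mice. At 24 h 1 rose and 5 fell, and at 48 h again 1 rose and 5 fell, with Nr1d1 at -2.57 (SE 0.32) and -2.73 (SE 0.32). At 72 h 3 fell, among them Nr1d1 (-1.42, SE 0.29) and Per1 (-1.18, SE 0.27). At 96 h, where 0.462% of all genes were called, Per1 fell (-1.30, SE 0.27). Nr1d1 at 96 h, at -1.12 (SE 0.29, edgeR adjusted p = 0.0869), was called by DESeq2 and not by edgeR. At 12 h against the mean of the later pools, 10 of 18 were higher and 0 lower, with Per1 at 2.13 (SE 0.22). Of all genes, 17.8% were higher and 15.9% lower in this contrast. By DESeq2, 1 of the 18 was lower. Of the 12 other output genes, 2 rose and 2 fell at 12 h, 1 rose and 5 fell at 24 h, 1 rose and 5 fell at 48 h, 1 rose and 3 fell at 72 h, and none was called at 96 h, where 3 had an unadjusted p under 0.05 and DESeq2 called 1. At 24 h Rgs16 (-4.20, SE 0.93), Lpin1 (-3.42, SE 0.71), Elovl3 (-3.36, SE 0.74) and Cyp7a1 (-2.65, SE 0.90), the rate-limiting enzyme of bile acid synthesis, were those that fell most.

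Between LKO and control pools, with time as a block, none of the 10 genes was called by edgeR, where 0.512% of all genes were; 2 had an unadjusted p under 0.05, as had 17.4% of all genes, and DESeq2 called 1 of the 10 and 608 of all genes. That gene was Wee1. It was 6.56, 5.20, 9.77, 14.7 and 6.52 CPM in LKO pools and 34.1, 12.3, 16.0, 21.2 and 16.2 CPM in control pools from 12 to 96 h. Wee1 was lower in LKO at all 5 times, where 16.7% of all genes kept 1 direction at all 5. The log2 fold change was -1.23 (SE 0.26, edgeR adjusted p = 0.0626), with adjusted p from 0.000391 by DESeq2 to 0.764 without the time block. At 0 h Wee1 was 2.35, 4.55, 14.1 and 11.2 CPM in LKO mice and 10.5, 7.39, 7.79 and 12.3 CPM in control mice, which overlapped.

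The other 9 genes were higher in LKO pools at some times and lower at others. At 48 h Upp2 was 440 CPM in the LKO and 48.4 CPM in the control pool, log2 3.18 apart, and Avpr1a was 1.71 apart in the same direction. At 96 h Usp2 (log2 -2.27), Coq10b (-1.76), Tef (-1.11), Ccrn4l (-1.04) and Dbp (-1.04) were lower in the LKO pool, while Arntl was 13.9 CPM there and 2.52 CPM in the control pool. Each of these differences is between a pair of pools and has no replicate check. Over the 5 times, Upp2 was at log2 0.69 (SE 0.46), Avpr1a at 0.55 (SE 0.25) and Hlf at 0.44 (SE 0.18), and none of the 3 was called. Over all alternative fits, the value lay between 0.16 and 1.06 for Upp2, 0.29 and 0.76 for Avpr1a, and 0.36 and 0.58 for Hlf.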

How the data were processed

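RNA-seq of whole liver was deposited as 1 table of raw counts per library. Per the methods, the authors trimmed reads with Trimmomatic and aligned them with STAR to mm10; the annotation version is not given in the sources used here. The deposited counts hold 1 strand-independent and 2 stranded columns of reads per gene. The strand-independent counts were used here; rows that name no gene were left out. The 10 genes, the gene lists and the tests were chosen with earlier results of these data known. All 10 genes, E2f7 and E2f8, and up to 4 called genes of each list with the largest change, besides Arntl, Per1, Per2 and Nr1d1, could be named, with the 5 genes most like Dbp and Nfil3. Levels are CPM scaled by TMM. Each comparison was fitted over all genes with edgeR 4.0.16 (R 4.3.3; filterByExpr, TMM, quasi-likelihood F-test, Benjamini-Hochberg adjustment), and genes were called at an adjusted p under 0.05 and a fold of at least 1.5. The LKO contrast at 0 h used 8 mice, the pools 10 libraries with time as a block, and the time course 18 libraries with genotype as a term. Alternatives were DESeq2 1.42.0, other scalings and filters, and leaving out each library (for LKO against control pools, each time point). The fits were tested on simulated data. Between 12665686 and 19499897 reads per library were counted. RPKM used exon lengths of GENCODE vM21. Hepatocyte, macrophage, neutrophil, endothelial, stellate, cholangiocyte and lymphocyte marker lists were checked. The summed levels at 0 h and over the pools were 67.4 to 266 and 109 to 253 CPM for macrophages and 0.645 to 6.99 and 0.796 to 5.11 CPM for lymphocytes.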

Additional observations from a re-analysis of the deposited data

Results flagged for a closer look

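For Tef at 96 h, the control pool was above all 4 control mice at 0 h, by 0.25 on the log2 scale against their mean, and the LKO pool was below all 4 LKO mice at 0 h, at -0.57 against theirs. The effects pointed in opposite directions in the 2 genotypes; with 1 pool each, the difference was not tested. In 20 sets of 4 values checked at 0 h, no gap between an end value and its neighbour was a large enough share of the range to be flagged. Unflagged values could still lie apart. LKO mouse 2 had 13.9 CPM of Usp2 against 38.5 to 45.2 CPM in the other LKO mice. Its Ccrn4l was 18.0 CPM against 49.9 to 61.3 CPM.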

How the results depend on the processing

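The counts of called genes among the 10 were recomputed under each alternative. No log2 fold change that was called changed sign. For 48 h, 4 became 1 with library size alone and 2 with the sum of the stranded columns, an alternative chosen after seeing the data; for 72 h, 0 became 1 with DESeq2. Single calls also ended: Tef at 12 h with RLE scaling and the stranded sum (adjusted p up to 0.0548), Coq10b at 24 h with library size alone (0.0535), and at 48 h Tef with RLE scaling, library size alone and the stranded sum (up to 0.0811), Coq10b with library size alone (0.0604), and Avpr1a with library size alone and the stranded sum (up to 0.0676). In a fit on the 10 pools alone, 12 h against later, the Upp2 call ended (0.0786) and Dbp gained one (0.0178). For LKO against control pools, 0 became 1 with DESeq2 and with every gene of at least 1 count. For HKO against NULL, the contrast that chose the genes and so a description only, 8 became 5 in one fit over 14 single-mouse libraries and 10 with DESeq2. The values without control mouse 3, whose share of unmapped reads was largest, were an alternative chosen after seeing the data. Leaving out 1 library at a time gave 0 to 0 genes for LKO against control at 0 h, 5 to 9 for HKO, 2 to 7 at 12 h, 2 to 5 at 24 h, 0 to 4 at 48 h, 0 to 1 at 72 h, 0 to 0 at 96 h and 1 to 3 for 12 h against later; for LKO against control pools, both pools of a time point were left out together, which gave 0 to 0. Same-numbered mice did not deviate together (correlations of -0.31 to 0.18 in the LKO cohort and -0.04 to 0.12 in the HKO cohort), and the numbers came from the labels alone; with the replicate number as a block, the count was 0 for LKO and 8 for HKO. Single-library fits assume that a lone pool varies like the other groups. Pools of 3 mice hide variation between animals, and the number of libraries limits the precision.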
